A study of Mus musculus with 3 samples.

Results

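Energy and carbon metabolism in malignant B-1 cells was followed through 38 genes of glycolysis, the pyruvate dehydrogenase complex, the TCA cycle and the pentose phosphate pathway. They were chosen by name and pathway, with earlier results of these data known, and no measured value entered the rule. Of the 38, 35 had a probe set annotated to that gene alone, through 43 of the 12654 probe sets on the array, which name 8220 genes in all. The other 3, Gpi1, Eno1 and G6pdx, had no such probe set and were not analysed here. RNA came from LNC, a malignant B-1 cell line of a lymph node of a 1-year-old New Zealand Black (NZB) mouse. One array held RNA from a culture with antisense oligonucleotide to IL-10 at 20 µM, one from a culture with a scrambled IL-10 oligonucleotide at 20 µM, and one from untreated cells, with RNA taken at 24 h. All 3 cultures were of this single line, and the labels do not say whether an array held RNA of 1 culture or of several.

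Glycolysis splits glucose into pyruvate in the cytosol. Hexokinase traps glucose in the cell, phosphofructokinase commits it to the pathway, and phosphoglycerate kinase and pyruvate kinase return ATP. Lactate dehydrogenase reduces pyruvate to lactate and regenerates NAD, whereas the pyruvate dehydrogenase complex sends pyruvate into the mitochondrial TCA cycle. The pentose phosphate pathway branches off at glucose 6-phosphate and supplies NADPH and ribose. Proliferating and malignant lymphocytes are known for high rates of glycolysis and lactate release.

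With 1 array per group there was no replicate check, so no test was possible and no p-value is given. Intensities are on a linear scale, and a value of 595.9 or less was taken as noise and set to this floor before log2 was taken. Differences are log2 intensities of one array minus another. Error was gauged from the 2 control arrays: for each gene, the size of scrambled minus untreated that 95% of the 300 probe sets of most similar level stay within. This yardstick equals 2.28-fold at an intensity of 1000, 1.80-fold at 2000, 1.30-fold at 8000 and 1.26-fold at 16000, so dim genes carry much more error than bright ones. Of the 35 genes, 31 passed the filter, which asked for 1 value above the floor, and 28 exceeded it on every array. Another 3 were above the floor on some arrays only, and passed the filter through those alone. Intensities of different probe sets depend on their probes, so levels are compared between arrays within a gene and not between genes.

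The 3 arrays had 42.1% of probe sets above the floor on the array labelled antisense, against 42.6% with scrambled oligonucleotide and 42.0% without treatment. Il10, the targeted gene, went against the label: its main probe set read 13946 on the array labelled antisense, against 5616 with scrambled oligonucleotide and 5164 without treatment. Its control probe set read 6341, against 3967 and 3393. Every direction below therefore rests on the label. The 6 bacterial spike-in controls of intermediate brightness were lower on that array, by a mean log2 difference of -0.51 against scrambled and -0.63 against untreated. Of the B cell markers, 8 of 9 measured were above the floor on every array. The B-1 markers Cd5 and Spn stayed at or under the floor on each array, as did 5 of 6 T cell markers, 5 of 8 myeloid markers, 3 of 4 stromal markers and all 3 muscle markers measured. The B-1 marker Ptpn22 was above the floor, at 6032 on the array labelled antisense, against 5137 and 5091. Among the exceptions were Cd4, Cd14 and Cd68, all above the floor on every array. The only erythroid marker measured, Hba-a1, read 2233 on the array labelled antisense, against 559.6 with scrambled oligonucleotide, below the floor, and 1628 without treatment. The scrambled array was beyond the yardstick of 1.21 from both others, with log2 differences of 1.91 for antisense minus scrambled and -1.45 for scrambled minus untreated. Antisense minus untreated, 0.46, was within it. The summed intensity of the T cell markers was 1487, 2684 and 1349 on the arrays in the same order, and that of the myeloid markers 2465, 3005 and 4074. Cd4 made up most of the T cell sum, at 1266, 2339 and 1349. Of the myeloid markers, Cd14 read 1088, 1563 and 2061, and Cd68 went the other way, at 1331, 767.5 and 854.5. The differences of Cd4, Cd14 and Cd68 lie within their yardsticks. In B cell genes themselves, 2 of the 9 markers, Ms4a1 and Cd79a, read below both controls beyond the yardstick defined above: Ms4a1 at 31106 against 44803 and 44237, and Cd79a at 21473 against 30469 and 27790. Of the dimmer probe sets annotated to Ighm, the IgM heavy chain, 2 read above both controls beyond the yardstick, at 25443 against 16004.5 and 13300.3 and at 5746 against 1104 and 1023. The brightest one read 145518.5 against 183787 and 155216, below scrambled beyond the yardstick and within it against untreated. The second brightest Ighm probe set read 75374 against 81918 and 80245, within the yardstick. No other Ighm probe set was beyond it. Beyond the yardstick against both controls were 2.50% of probe sets in the lower and 2.76% in the higher direction. The part of these values in the results was not tested.

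Glycolytic genes were the main group that read below both controls on the array labelled antisense. Beyond the yardstick in both comparisons were Pfkl, Pfkm, Tpi1, Pgk1 and Ldha of glycolysis and Fh1 of the TCA cycle, 6 of the 35 genes, and none was higher than both. These shares were 2.50% lower and 2.76% higher over all 6127 probe sets past the filter. Of the 28 genes above the floor on every array, 6 were lower than both and none higher, beside 2.97% and 2.86% of such probe sets. Of the 17 genes with a mean intensity of 5000 or more, 5 were lower and none higher, beside 6.01% and 5.63% of 1297 probe sets. With scaling to the spike-in controls, which raises all differences from the scrambled array by a median of 0.46 and from the untreated array by 0.57, none of the 6 genes stayed below both controls beyond the yardstick, and differences of Pfkl, Pgk1, Ldha and Fh1 turned positive against 1 or both controls. These 6 genes are thus low relative to the common level of the array.

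The promoters of 4 of these genes and of Pfkp, the phosphofructokinase isoform that was not lower, are shown because many glycolytic genes are known targets of hypoxia-inducible factors. Each window runs from 250 bases before to 50 bases after a RefSeq start site in the build GRCm38.p6, on the strand of the gene, and capitals mark ACGTG or GCGTG on either strand, the 2 core motifs of these factors.
Pgk1 (chrX:106186850-106187149, plus strand): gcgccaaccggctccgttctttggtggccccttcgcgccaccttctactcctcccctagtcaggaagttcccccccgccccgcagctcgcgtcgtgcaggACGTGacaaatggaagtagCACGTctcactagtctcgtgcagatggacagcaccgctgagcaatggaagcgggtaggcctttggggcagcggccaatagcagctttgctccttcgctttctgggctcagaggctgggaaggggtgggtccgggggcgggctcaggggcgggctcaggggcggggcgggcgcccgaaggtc
Ldha (chr7:46845554-46845853, plus strand): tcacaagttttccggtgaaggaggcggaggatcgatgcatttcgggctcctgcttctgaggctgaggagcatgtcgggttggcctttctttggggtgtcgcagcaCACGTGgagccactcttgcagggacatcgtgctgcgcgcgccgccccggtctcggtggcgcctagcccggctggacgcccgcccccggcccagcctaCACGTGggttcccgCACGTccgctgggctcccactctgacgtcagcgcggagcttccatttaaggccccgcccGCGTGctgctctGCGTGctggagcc
Pfkl (chr10:78009758-78010057, minus strand): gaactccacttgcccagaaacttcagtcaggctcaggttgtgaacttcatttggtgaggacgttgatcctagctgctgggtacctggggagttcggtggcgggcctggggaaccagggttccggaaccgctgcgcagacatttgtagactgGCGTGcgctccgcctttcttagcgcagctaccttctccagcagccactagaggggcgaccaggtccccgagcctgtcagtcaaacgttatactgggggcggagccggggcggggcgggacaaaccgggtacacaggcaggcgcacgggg
Tpi1 (chr6:124814109-124814408, minus strand): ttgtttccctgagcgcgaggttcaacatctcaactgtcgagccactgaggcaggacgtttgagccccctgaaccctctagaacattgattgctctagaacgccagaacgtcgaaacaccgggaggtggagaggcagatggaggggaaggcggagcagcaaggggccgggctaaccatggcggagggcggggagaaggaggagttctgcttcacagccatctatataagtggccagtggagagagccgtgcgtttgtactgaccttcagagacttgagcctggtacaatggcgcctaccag
Pfkp (chr13:6648722-6649021, minus strand): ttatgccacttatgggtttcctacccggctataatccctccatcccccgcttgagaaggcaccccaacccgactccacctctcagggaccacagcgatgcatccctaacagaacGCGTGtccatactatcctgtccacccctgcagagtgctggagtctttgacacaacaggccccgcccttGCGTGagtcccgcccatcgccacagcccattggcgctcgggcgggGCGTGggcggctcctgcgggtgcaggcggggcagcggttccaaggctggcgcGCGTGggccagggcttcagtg

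The Ldha window shown held ACGTG 5 times and GCGTG 2 times over both strands. Both CACGTG sequences of that window, the E-box bound by Myc and Max and related factors, count as ACGTG on either strand. A second Ldha window, not shown, held GCGTG 2 times and neither ACGTG nor CACGTG. The Pgk1 window held ACGTG 2 times. The Pfkl window held 1 GCGTG, the Pfkp window held 4, and the Tpi1 window held neither core. Windows of the lower genes Pfkm and Fh1 are not shown. That of Fh1 held GCGTG 2 times, and those of Pfkm ranged from ACGTG 3 times to neither core. Hk1, also not lower and not shown, held ACGTG 2 times and GCGTG 3 times in its second window and neither in its first. ACGTG was present in 41.2% of the 51 promoter windows of the measured genes with a window, against 19.6% of all 32851 windows, and GCGTG in 56.9% against 32.4%. Among the 10 windows of the 6 genes that read lower than both controls, 4 held ACGTG and 6 held GCGTG. The GC box GGGCGG, on either strand, was in 58.8% of windows of the measured genes and 35.7% of all windows. These are matches of letters, not evidence of binding.

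The first step, hexokinase, did not differ beyond the yardstick. Hk1, the broadly expressed hexokinase, read 71867 on the array labelled antisense, against 67938 with scrambled oligonucleotide and 68447 without treatment, and its values span 0.08 on the log2 scale. Hk2, the inducible isoform, read 2192, 2444 and 1782 on the same arrays, -0.16 from scrambled and 0.30 from untreated on the log2 scale, within its yardstick of 0.78. Its second probe set was below the floor on the 3 arrays. The change of Hk2 relative to Hk1 had opposite signs against the 2 controls, at -0.24 and 0.23.

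Of the subunits of phosphofructokinase, which commits sugar to glycolysis, Pfkl and Pfkm read below both controls beyond the yardstick and Pfkp did not. Pfkl, the liver-type subunit, read 7326 on the array labelled antisense, against 13502 with scrambled oligonucleotide and 10781 without treatment. It was 1.84-fold lower than scrambled and 1.47-fold lower than untreated, where the yardstick is 1.28-fold. Pfkm, the muscle-type subunit, read 664 on the array labelled antisense, little above the floor, against 2556 with scrambled oligonucleotide and 1875 without treatment. It was 3.85-fold and 2.83-fold lower, beyond its yardstick of 2.15-fold. Pfkp, the platelet-type subunit, read 1826, 1566 and 1540 on the array labelled antisense, the scrambled and the untreated array, and its differences of 0.22 and 0.25 lie within its yardstick of 0.88. Relative to Pfkp, Pfkl was lower by a log2 difference of -1.10 against scrambled and -0.80 against untreated, and Pfkm by -2.17 and -1.74. The difference between isoforms was not tested, and the yardstick of Pfkp alone, 0.88, is larger in size than the -0.80 of Pfkl. A dimmer probe set of Pfkp read 743, 599.2 and 1134, and its differences of 0.31 and -0.61 also lie within the yardstick. For Pfkl and Pfkm the array labelled antisense was the lowest and the scrambled array the highest. Of probe sets above the floor on every array, the first holds for 36.4% and the second for 33.4%.

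Aldolase cleaves the 6-carbon sugar into a pair of triose phosphates. Aldoa, the ubiquitous isoform, was dim in its brighter probe set, at 257 on the array labelled antisense, below the floor, against 1041 with scrambled oligonucleotide and 793 without treatment. It was at least 1.75-fold lower than scrambled and at least 1.33-fold lower than untreated, within the yardstick of 2.19-fold. These values depend on the floor: with the floor halved its log2 differences were -1.81 and -1.41, the first beyond the yardstick, and with the floor doubled both were 0. Its family probe set was below the floor on every array. Aldoc, a brain-enriched isoform, read 746 on the array labelled antisense and was below the floor at 103 and 180 on the scrambled and untreated arrays, which is at least 1.25-fold higher and within the yardstick.

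Tpi1, triosephosphate isomerase, which interconverts the triose phosphates, had the largest difference from untreated among the genes with a mean intensity of 5000 or more. It read 32108 on the array labelled antisense, against 55282 with scrambled oligonucleotide and 57073 without treatment. That is 1.72-fold lower than scrambled and 1.78-fold lower than untreated, with a yardstick of 1.24-fold. The control arrays differed by -0.05 on the log2 scale. Probe sets in general moved little at this level: over the 164 with a mean intensity of 20000 to 50000, the median difference was -0.03 against scrambled and -0.02 against untreated.

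**Figure D1:**
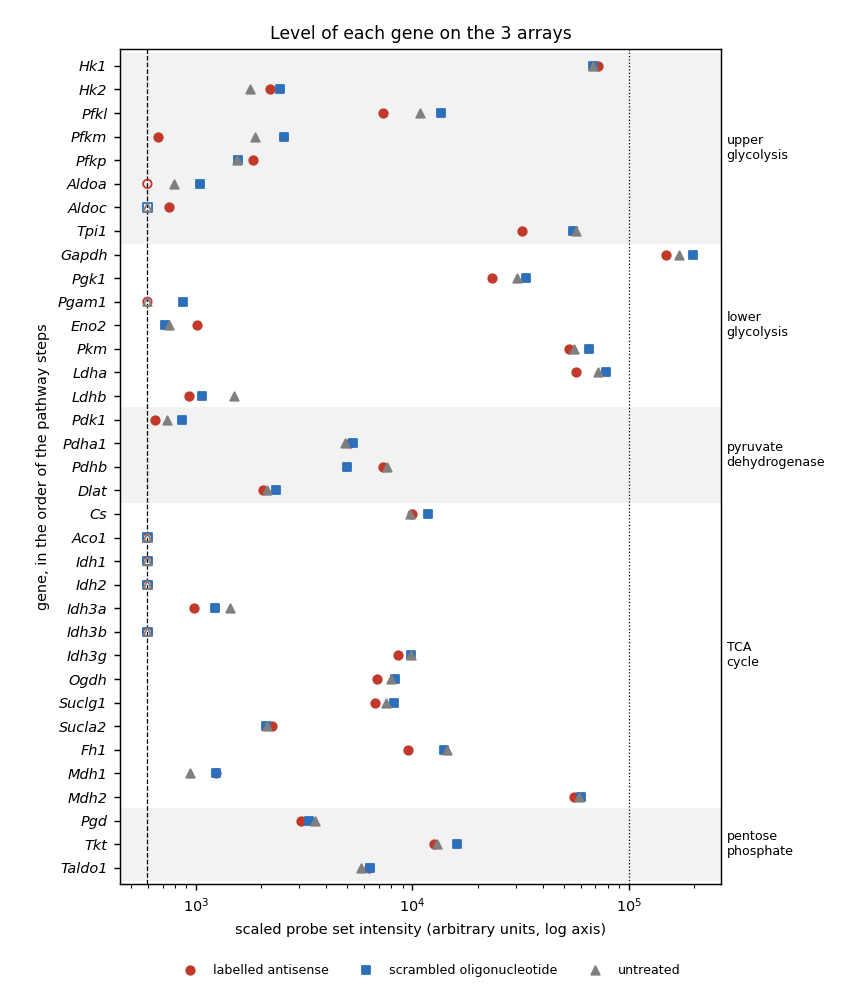
Scaled intensity of the 35 measured genes on a log axis, in pathway order from top to bottom, on the array labelled antisense (circles), the scrambled array (squares) and the untreated array (triangles), 1 array each without error bars. Hollow symbols mark values set to the floor of 595.9 (dashed line), and the dotted line marks 100000. Tpi1 reads 32108 on the array labelled antisense, against 55282 and 57073 on the scrambled and untreated arrays.

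In lower glycolysis, which yields ATP and NADH, the array labelled antisense read below both controls beyond the yardstick for Pgk1 and Ldha. It was also the lowest array for Gapdh, Pkm and Ldhb, not beyond the yardstick against both. Pgk1, phosphoglycerate kinase, read 23190.5 on the array labelled antisense, against 33559 with scrambled oligonucleotide and 30264 without treatment, and was 1.45-fold and 1.30-fold lower with a yardstick of 1.26-fold. Ldha, the lactate dehydrogenase subunit that favours lactate formation, read 57233 against 78328 and 72052, and was 1.37-fold and 1.26-fold lower. The second of these differences, -0.332, is barely beyond the yardstick of 0.328. Pgk1 and Ldha were highest on the scrambled array, and the 3 arrays kept the same order for both.

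Gapdh, glyceraldehyde phosphate dehydrogenase, was read by 3 control probe sets along its transcript, all above 100000 and possibly saturated. The middle one read 149045 on the array labelled antisense, against 198771 with scrambled oligonucleotide and 171103 without treatment. Its difference from scrambled, -0.41 on the log2 scale, was beyond the yardstick of 0.33, and that from untreated, -0.20, was within it. The 5-prime probe set differed by -0.41 and -0.16, and the 3-prime probe set by -0.51 and -0.27. The spiked CreX controls and the actin controls, 5 bright probe sets in all, showed nearly the same pattern, at a mean of -0.43 relative to scrambled and -0.11 relative to untreated. The 70 probe sets of a mean intensity of 100000 or more had medians of -0.23 and 0.00. The difference of Gapdh from the scrambled array was -0.12 with quantile normalization and -0.22 with cyclic loess, both within the yardstick. With scaling to the spike-in controls it was 0.10.

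Pkm, pyruvate kinase, the last ATP-yielding step, read 52827 on the array labelled antisense, against 65473 with scrambled oligonucleotide and 56043 without treatment, through a shared probe set that cannot separate its splice forms. Its log2 differences of -0.31 and -0.09 lie within the yardstick of 0.33. The first was beyond it with scaling to the median of probe sets above the floor, at -0.36, and with a yardstick over 150 probe sets. Between an intensity of 50000 and 100000, the median difference over 54 probe sets was -0.10 against scrambled and 0.04 against untreated. The scrambled array was higher than the untreated one in this range by a median of 0.13, and the difference from scrambled at this brightness holds that shift. Tpi1, Pgk1 and Ldha kept differences of -0.69, -0.47 and -0.33 or lower against scrambled, and of -0.81, -0.38 and -0.33 or lower against untreated, in every alternative except scaling to the spike-in controls. Ldha was no longer beyond the yardstick against both controls with scaling to the median of probe sets above the floor. The part of brightness in these differences was not tested.

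The remaining genes of lower glycolysis were dim. Pgam1, phosphoglycerate mutase, read 595.9 on the array labelled antisense, at the floor, 871 with scrambled oligonucleotide and 585 without treatment. Eno2, the neuronal enolase isoform, read 1010, 718 and 751 on the arrays in this order, differing by 0.49 and 0.43 within its yardstick of 1.21. Ldhb, the subunit that favours pyruvate formation, read 928, 1067 and 1499, differing by -0.20 and -0.69 within its yardstick of 1.30. The change of Ldhb relative to Ldha was 0.25 against scrambled and -0.36 against untreated. In all, 5 of 15 measured glycolytic genes were lower than both controls beyond the yardstick, 3 of 8 from hexokinase to triosephosphate isomerase and 2 of 7 after it. The share was 2.50% over all probe sets past the filter, and 6.01% over those with a mean intensity of 5000 or more. The median difference of the 12 glycolytic genes above the floor on every array was -0.36 against scrambled and -0.27 against untreated, beside 0.00 and 0.01 over all 4539 such probe sets.

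**Figure D2:**
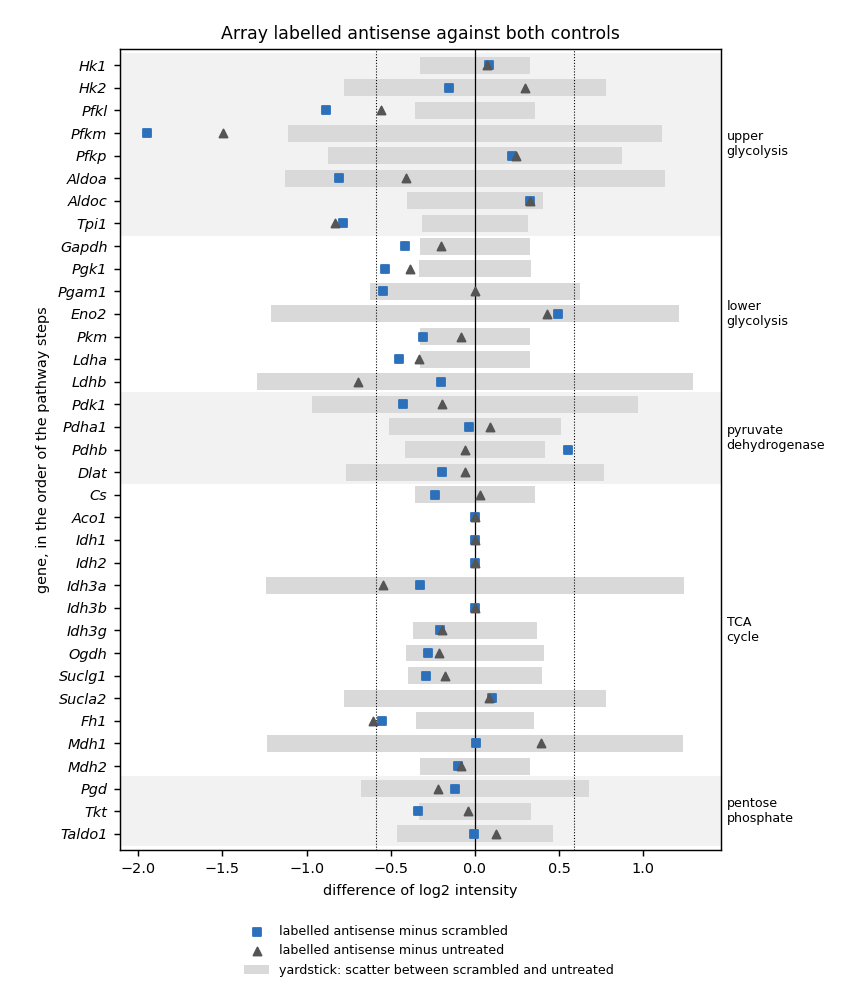
Log2 intensity of the array labelled antisense minus scrambled (squares) and minus untreated (triangles) for the 35 measured genes, in pathway order from top to bottom. Grey bars are the yardstick of each gene and dotted lines mark 1.5-fold. Both symbols lie left of the bar for Pfkl, Pfkm, Tpi1, Pgk1, Ldha and Fh1, relative to the common level of the arrays, and not so after scaling to the spike-in controls.

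Inside mitochondria, the pyruvate dehydrogenase complex turns pyruvate into acetyl-CoA for the TCA cycle. Pdha1, its E1 alpha subunit, read 5168 on the array labelled antisense, against 5286 with scrambled oligonucleotide and 4866 without treatment. Pdhb, its E1 beta subunit, read lowest on the scrambled array: 7296 on the array labelled antisense, against 4984 with scrambled oligonucleotide and 7596 without treatment. The array labelled antisense was 1.46-fold higher than the scrambled one, and the scrambled array was 1.52-fold lower than the untreated one, both beyond the yardstick of 1.34-fold. Pdhb was the only one of the 35 genes beyond the yardstick in the scrambled against the untreated array, where 1.84% of probe sets past the filter were lower and 2.24% higher. The yardstick was drawn from this same comparison, so a small share of probe sets lies beyond it by construction. A count of 1 of 35 genes is near that share. Dld, the E3 subunit, which is not among the 38 genes, read 4166, 2637 and 4061 on the arrays in the same order. The first was 1.58-fold higher than scrambled, and scrambled was 1.54-fold lower than untreated. On the log2 scale these are 0.660, level with its yardstick of 0.660 and not called beyond it, and -0.623, within it. Dlat, the E2 subunit, read 2037, 2337 and 2126 in its brighter probe set and 1469, 1479 and 862 in the other. Neither set was beyond its yardstick. The change of Pdhb relative to Pdha1 was 0.58 against scrambled and -0.15 against untreated. Pdk1, a kinase that switches the complex off, read 643, 865 and 736, differing by -0.43 and -0.20 within its yardstick of 0.97.

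In the TCA cycle, Fh1 stood out. Fumarate hydratase, which it encodes, turns fumarate into malate. Fh1 read 9503 on the array labelled antisense, against 13951 with scrambled oligonucleotide and 14480 without treatment. It was 1.47-fold lower than scrambled and 1.52-fold lower than untreated, where the yardstick is 1.27-fold, and the control arrays differed by -0.05 on the log2 scale. Mdh2, the mitochondrial malate dehydrogenase of the next step, read 55703, 59829 and 58929 on the array labelled antisense, the scrambled and the untreated array. Its differences of -0.10 and -0.08 lie within the yardstick of 0.33.

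No other measured enzyme of the cycle was beyond the yardstick against either control. Ogdh, of the oxoglutarate dehydrogenase complex, read 6880.5 on the array labelled antisense, against 8346 with scrambled oligonucleotide and 7967 without treatment, with differences of -0.28 and -0.21. Suclg1, the alpha subunit of succinyl-CoA ligase, read 6695, 8175.5 and 7585, with differences of -0.29 and -0.18. Idh3g, a regulatory subunit of the NAD-dependent isocitrate dehydrogenase, read 8547, 9876 and 9804, with differences of -0.21 and -0.20. All 3 thus had the array labelled antisense lowest, within yardsticks of 0.37 to 0.41. Idh3a, the catalytic subunit, read 980, 1229 and 1431, differing by -0.33 and -0.55 within a yardstick of 1.24. Cs, citrate synthase, which opens the cycle, read 9976.5, 11766 and 9777, and Sucla2, the ATP-forming beta subunit of succinyl-CoA ligase, read 2247, 2096 and 2120 in a family probe set. Mdh1, the cytosolic malate dehydrogenase of the malate-aspartate shuttle, read 1236, 1230 and 942, within its yardstick, and its change relative to Mdh2 was 0.11 against scrambled and 0.47 against untreated. The change of Sucla2 relative to Suclg1 was 0.39 and 0.26. Aco1, Idh1, Idh2 and Idh3b were at or under the floor on every array, so no difference was detectable for them. Over the 9 measured genes of this group above the floor the median difference was -0.24 against scrambled and -0.18 against untreated.

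In the pentose phosphate pathway no gene was lower or higher than both controls beyond the yardstick. Pgd, phosphogluconate dehydrogenase, which yields NADPH, read 3061 on the array labelled antisense, against 3317 with scrambled oligonucleotide and 3561 without treatment. Tkt, transketolase of the non-oxidative branch, read 12637, 16006 and 13031, and was 1.27-fold lower than scrambled, slightly beyond its yardstick of 1.26-fold, and 1.03-fold lower than untreated, within it. Quantile normalization and cyclic loess brought the difference of Tkt from scrambled to -0.32 and -0.33, within the yardstick, and scaling to the spike-in controls turned it to 0.17. Taldo1, transaldolase, read 6306, 6342 and 5794, differing by -0.01 and 0.12.

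**Figure D3:**
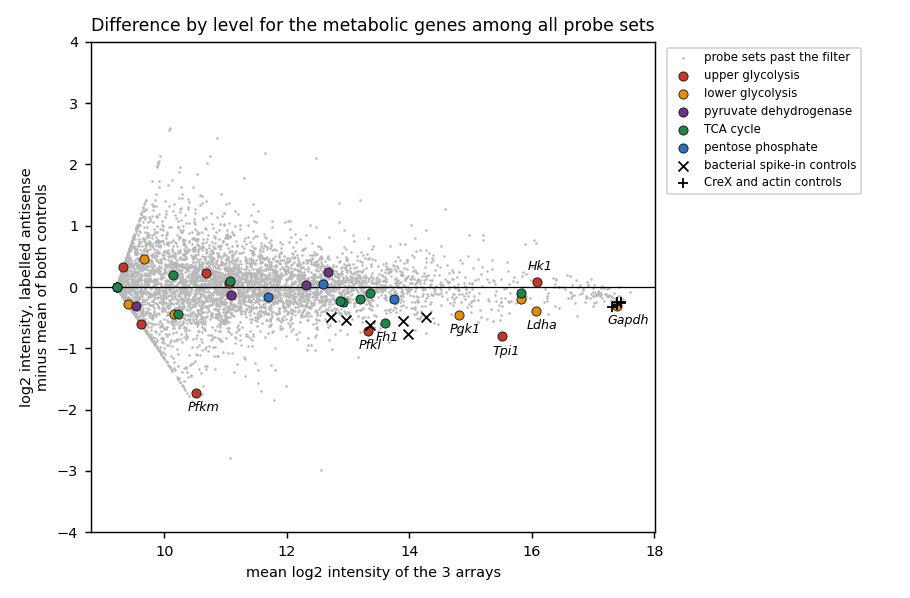
Log2 intensity of the array labelled antisense minus the mean of both controls, against the mean log2 intensity of the 3 arrays, for the 6127 probe sets past the filter (grey), the 35 measured genes (coloured by pathway) and 2 sets of array controls (crosses). Tpi1, Pgk1 and Ldha lie below most probe sets of like level, Gapdh lies beside the CreX and actin controls, and the spike-in controls lie about as low as Fh1, whose difference from untreated turns to 0.02 with scaling to them.

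Taken singly, the comparisons differed in how many genes passed the yardstick. Against the scrambled array, 8 of the 35 genes were lower on the array labelled antisense and 1, Pdhb, was higher, where 5.75% of probe sets past the filter were lower and 5.37% higher. Gapdh and Tkt were the genes lower than scrambled and not beyond the yardstick against untreated. Against the untreated array, 6 were lower and none was higher, where 4.08% were lower and 4.88% higher. By a fixed fold of 1.5, 4 genes were lower than scrambled, beside 9.78% of probe sets past the filter, and 4 lower than untreated, beside 7.98%. The first were Pfkl, Pfkm, Aldoa and Tpi1, and the second Pfkm, Tpi1, Ldhb and Fh1. None was higher by that fold than scrambled, beside 10.3%, or than untreated, beside 9.65%. On the scrambled array 1 gene, Pdhb, was lower than untreated by that fold, beside 6.10%, and none was higher, beside 6.76%. Only Pfkm and Tpi1 were at least 1.5-fold lower than both, beside 4.21% of probe sets, so that by this rule the share of the 35 genes was near the background, and none of the 35 was higher than both by that fold, beside 5.42%. The comparisons share the array labelled antisense, so they are not independent of each other.

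The array labelled antisense read lowest for 18 of the 28 genes above the floor on every array, where it was lowest for 36.4% of such probe sets, and the highest for 5, where the share was 37.5%. The scrambled array was the highest for 17 of the 28, where it was highest for 33.4% of such probe sets. Among the 17 genes with a mean intensity of 5000 or more, the array labelled antisense was lowest for 12, beside 40.2% of probe sets of that level, highest for 1, beside 36.4%, and the scrambled array highest for 13, beside 37.5%. The median of the 28 genes was -0.22 against scrambled and -0.13 against untreated, and 0.11 for scrambled minus untreated. Over all 35 measured genes, those at the floor included, the medians were -0.20, -0.06 and 0.07. The scrambled array thus lay above the untreated one in the median of these genes, and the difference from scrambled holds that as well. The medians of the 31 genes past the filter, -0.24 and -0.09 as reported, turned with spike-in scaling to 0.26 and 0.44, below the 0.46 and 0.57 of all probe sets past the filter.

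Other genes of the same pathways were counted from a list of 67 written from textbook biochemistry, of which 50 were measured, 29 passed the filter and 26 exceeded the floor on every array. None of the 29 past the filter was beyond the yardstick against both controls, beside 2.76% of probe sets past the filter higher and 2.50% lower. The other 21 were at the floor on every array and could not be called. At these shares few of 29 genes would be called, so the lack of calls is near the background. By the 1.5-fold rule, 2 of the 29 past the filter were higher on the array labelled antisense and 1 lower. Beside them stand 5.42% and 4.21% of probe sets past the filter, so both counts are near the background. Rpe, the ribulose phosphate epimerase of the pentose phosphate pathway, read 3044 on the array labelled antisense, against 1858 with scrambled oligonucleotide and 1546 without treatment. It was 1.64-fold and 1.97-fold higher, the first within and the second beyond its yardstick of 0.78 on the log2 scale. Slc25a11, the mitochondrial oxoglutarate carrier, read 1060.5 against 501 and 492, both below the floor, at least 1.78-fold higher. It passed the filter through the array labelled antisense alone, and its differences of 0.83 lie within its yardstick of 0.86. Minpp1, an inositol and bisphosphoglycerate phosphatase, read 1500.0 against 2530 and 2422, differing by -0.75 and -0.69, within its yardstick of 0.78. Slc25a1, the citrate carrier, was not counted, as its brighter probe set differed by -0.787 and -0.582, the first alone beyond its yardstick of 0.696. Its dimmer probe set read 553, below the floor, against 917 and 1202. That probe set was lower than both by 1.5-fold, and its differences lie within its yardstick of 1.20. On the scrambled array Dld was lower and Vhl, of the ubiquitin ligase that degrades hypoxia-inducible factors, was higher than on both others by 1.5-fold. Vhl read 545 on the array labelled antisense, 914 with scrambled oligonucleotide and 407 without treatment, with only the scrambled value above the floor. Scrambled minus untreated was 0.62 for Vhl, within its yardstick of 0.69.

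Of the subunits of succinate dehydrogenase, the step before fumarate hydratase, Sdhb, Sdhc and Sdhd were above the floor and Sdha was not. Sdhb read 12422, 11375 and 11287 on the array labelled antisense, the scrambled and the untreated array, and Sdhd read 16480 against 17861 and 18711.5, both within the yardstick. Hif1a, the oxygen-regulated subunit of the factor named above, read 3489, 3204 and 3511, with differences of 0.12 and -0.01. Myc, a transcription factor with many targets in glycolysis, read 5114, 4944 and 4457, with differences of 0.05 and 0.20. Of the glucose and lactate carriers, Slc2a1 and Slc16a1 were at or under the floor on every array, and Slc2a3 read 1565.5, 1354 and 1305.5.

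**Figure D4:**
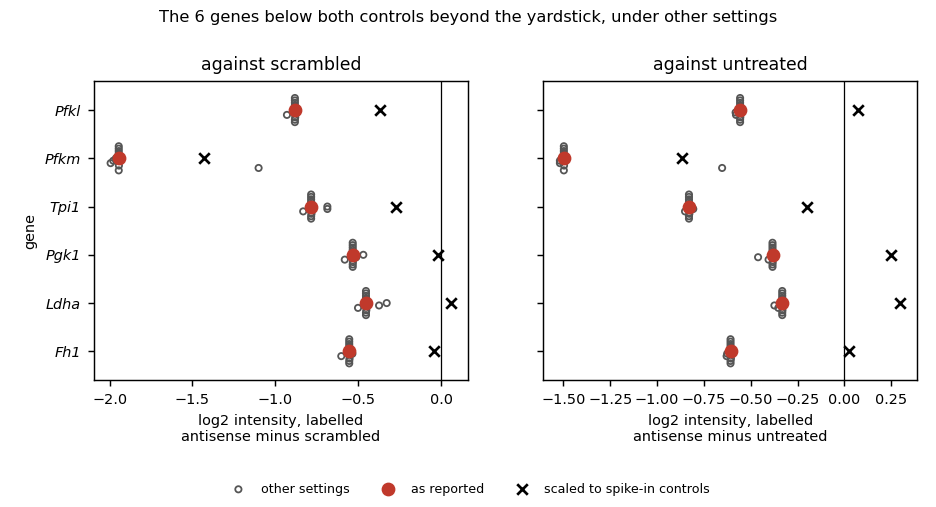
Log2 difference of the 6 genes that were lower than both controls beyond the yardstick, against scrambled (left) and untreated (right), as reported (filled circles), under the other settings (open circles) and scaled to the spike-in controls (crosses). Pfkm moves with a doubled floor, to -1.10 and -0.65, and the crosses lie above 0 for 4 of the 6 genes against untreated.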

How the data were processed

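RNA of 3 groups, 1 array each, was measured on an Affymetrix mouse array. The authors deposited 1 linear intensity value per probe set and array. Software and annotation are not given in the sources used here. On all 3 arrays the 2% trimmed mean of the deposited values is 1500.0, which shows a scaling. Between 24.8% and 27.9% of values were at or below 0. Each array was rescaled to a common trimmed mean over the 12588 probe sets other than the 66 controls. The floor is 2 robust standard deviations of the values below 0. Where a gene has several probe sets, the one with the highest mean log2 stands for it, and Gapdh by control probe sets. Symbols came from the platform annotation: 10276 probe sets had 1 symbol, 363 had several and 1949 had none listed. All member genes were named, and pathway genes where 1.5-fold apart. The succinate dehydrogenase subunits, Hif1a, Myc, the glucose and lactate carriers and, by its brighter probe set, Slc25a1 fall outside this rule. They were named after their values were seen. Both the genes and the pathway list were chosen with earlier results of these data known. Tools were Python 3.11.15, numpy 2.4.6, pandas 2.3.3, scipy 1.17.1 and limma 3.58.1 (cyclic loess). Precision is limited by having 1 array per group. Promoters came from RefSeq (GRCm38.p6), which held windows for 34 of the 35 measured genes.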

Additional observations from a re-analysis of the deposited data

How the results depend on the processing

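The 12 alternatives changed the floor, the scaling, the choice of probe set, the bright genes, the filter and the yardstick window. Scaling to the spike-in controls was the only one that turned called values. The median difference of the genes past the filter was then 0.26 against scrambled (-0.24 as reported) and 0.44 against untreated (-0.09 as reported), each below the median of all probe sets past the filter, at 0.46 and 0.57. Under that scaling 5 genes were at least 1.5-fold higher than both controls and 1 lower, and 2, Hk1 and Pdhb, were higher beyond the yardstick and 0 lower. Against scrambled, Gapdh turned to 0.10, Ldha to 0.06 and Tkt to 0.17. Against untreated, Pfkl turned to 0.073, Pgk1 to 0.25, Ldha to 0.30 and Fh1 to 0.023. With the floor halved, 2 genes were at least 1.5-fold higher than both controls, where none was as reported, and 3 at least 1.5-fold lower, where 2 were. Of the other settings, 9 kept the same 6 genes lower than both beyond the yardstick. A doubled floor left out Pfkm, at -0.65 against untreated, and scaling to the median of probe sets above the floor left out Ldha, at -0.35. The cause was not tested. No replicate could be left out, and no paired analysis was possible because each group had 1 array. Genes near the floor, Pfkm on the array labelled antisense among them, are limited by signal over background.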
